A study of Mus musculus with 28 samples.

Results

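The 35 genes described here are markers of blood vessels, read in dissected choroid plexus. They are 25 genes of endothelial cells, which line vessels, and 10 genes of mural cells, the pericytes and smooth muscle cells that wrap vessels. They were chosen by name as textbook markers, with earlier results of these data known, from 27179 Entrez genes present in both count tables. All 35 passed the filter on low counts in both batches, so every one was tested in every comparison. Gene expression was measured by poly(A) RNA sequencing of the lateral ventricle choroid plexus in 28 libraries from male mice, in 7 groups of 4. All mice were put under isoflurane and perfused through the heart with PBS before the tissue was dissected and snap frozen.

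The young mice were C57/BL6 wild-type animals of 3 to 4 months. Their tissue was taken at night (zeitgeber time, ZT, 18), at ZT 6 after 6 h of sleep disruption, or undisturbed at ZT 6, the day. The aged mice, of 12 to 14 months, were J20+ or littermates without the transgene (J20-, called aged wild-type here), each at ZT 18 (night) or ZT 6 (day). No label names the background strain of the aged mice. The J20 transgene encodes human amyloid precursor protein with changes found in familial Alzheimer's disease, and a PDGF-B promoter, used to express it in neurons, drives it. The young libraries are labelled batch 1 and the aged libraries batch 2, so age and batch cannot be told apart. Total counts ran from 14632089 to 43885898 per library. These are bulk samples, in which fewer vascular cells and less vascular RNA per cell cannot be told apart.

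The choroid plexus is a sheet of epithelium folded over a core of stroma and capillaries. Its capillaries are fenestrated, with pores closed by diaphragms built from the protein Plvap, and lack the tight barrier of vessels in the brain itself. Endothelial cells depend on the VEGF receptors Kdr and Flt1, on the angiopoietin receptor Tek with its partner Tie1, and on transcription factors of the ETS and SoxF families. Pericytes are recruited through the receptor Pdgfrb, and arterioles carry smooth muscle with the contractile proteins Acta2, Tagln and Myh11.

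Of the 35 genes, 20 had a promoter window in the RefSeq table of build GRCm38.p6, 13 of them endothelial and 7 mural. The ETS-type letters CNGGAAG, which contain the core bound by factors such as the member Erg, were searched on both strands in the 250 bases before the start site, in the first listed window of each gene, since some genes have several. They stood in that window of 8 of 13 endothelial genes and 0 of 7 mural genes, against 26.2% of the 27025 genes of the table. The E-box letters CACGTG, which clock factors bind and which read the same on both strands, stood in the windows of 0 of 13 endothelial and 0 of 7 mural genes, against 6.05% of all genes. The CArG box, bound by the smooth muscle regulator SRF and also symmetric, was searched as CCWWWWWWGG, with W for A or T. Exact matches stood in 0 of 13 and 0 of 7, against 1.4% of all genes. Boxes with a mismatch were not counted, and the smooth muscle genes Tagln and Myh11 had no window. The 150 bases before the start site are shown as examples for 4 endothelial genes chosen because they carry the ETS-type letters, for Eng, an endothelial gene without them, and for 2 pericyte genes. The choice fixes which of these hold the letters, so only the counts above compare the classes. The other endothelial genes whose window lacks the letters were Kdr, Tek, Erg and Ly6c1. They run 5′ to 3′ on the gene's strand, and capitals mark the ETS-type letters of either strand.
Tie1: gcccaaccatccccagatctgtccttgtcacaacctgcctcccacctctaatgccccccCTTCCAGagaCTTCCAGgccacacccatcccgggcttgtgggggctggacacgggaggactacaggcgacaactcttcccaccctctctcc
Clec14a: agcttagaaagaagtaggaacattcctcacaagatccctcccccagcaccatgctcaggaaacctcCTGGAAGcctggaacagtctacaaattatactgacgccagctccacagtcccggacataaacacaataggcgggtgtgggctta
Cd34: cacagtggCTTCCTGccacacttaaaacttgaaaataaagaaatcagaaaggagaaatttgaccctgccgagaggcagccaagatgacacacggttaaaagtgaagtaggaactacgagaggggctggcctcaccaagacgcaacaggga
Egfl7: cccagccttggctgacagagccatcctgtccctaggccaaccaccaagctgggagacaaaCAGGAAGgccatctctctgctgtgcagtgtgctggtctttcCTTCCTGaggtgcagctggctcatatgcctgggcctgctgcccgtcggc
Eng: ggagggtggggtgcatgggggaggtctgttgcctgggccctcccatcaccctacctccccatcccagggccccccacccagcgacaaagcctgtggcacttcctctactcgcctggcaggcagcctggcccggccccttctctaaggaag
Rgs5: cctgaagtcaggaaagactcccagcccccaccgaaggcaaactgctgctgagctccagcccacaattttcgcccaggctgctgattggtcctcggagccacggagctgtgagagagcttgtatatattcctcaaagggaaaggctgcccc
Kcnj8: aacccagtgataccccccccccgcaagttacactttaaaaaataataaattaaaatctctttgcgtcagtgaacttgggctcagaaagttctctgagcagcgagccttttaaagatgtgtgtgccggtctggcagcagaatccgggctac
The windows of Tie1 (chr4:118489850-118489999), Clec14a (chr12:58269259-58269408) and Kcnj8 (chr6:142571615-142571764) are on the minus strand. Those of Cd34 (chr1:194938671-194938820), Egfl7 (chr2:26580933-26581082), Eng (chr2:32646445-32646594) and Rgs5 (chr1:169655351-169655500) are on the plus strand. The first letter of the match lay 91 and 81 bases before the start site in Tie1, 84 in Clec14a, 142 in Cd34, and 90 and 49 in Egfl7. A match describes letters and not binding.

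The order of the genes was taken from CPM (counts scaled to the size of the library) divided by kilobases of exon (CPM per kb), a level corrected for length, separately in each batch. In the 12 young libraries the highest was Emcn, a sialomucin of capillary and venous endothelium, at 20.9 ± 6.74 CPM per kb (SD, n = 12). Vtn, the matrix protein vitronectin that brain pericytes make, followed at 13.7 ± 3.84 CPM per kb, and Kdr at 10.3 ± 2.69 CPM per kb. Podxl, an anionic coat protein of endothelium, had 8.02 ± 2.92 CPM per kb, and Ly6c1, a surface protein of capillary endothelium, 5.60 ± 2.29 CPM per kb. Of the steps between neighbours in this order, only that between Emcn and Vtn was larger than both SDs. Plvap stood at 2.31 ± 1.04 CPM per kb, rank 12 of 35. The lowest were Vwf, the clotting protein of larger vessels, at 0.146 ± 0.134 CPM per kb and Cspg4, the pericyte proteoglycan NG2, at 0.0943 ± 0.0236 CPM per kb.

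In the 16 aged libraries Vtn was first at 64.2 ± 17.4 CPM per kb (SD, n = 16), and the step from it to Egfl7 was the only one between neighbours larger than both SDs. Egfl7, a factor secreted by endothelium, had 10.9 ± 2.71 CPM per kb, Plvap had 9.61 ± 2.33 CPM per kb and Emcn 8.74 ± 2.00 CPM per kb. The lowest were Erg at 0.570 ± 0.401 and Sox17, a SoxF factor of arterial endothelium, at 0.451 ± 0.207 CPM per kb. For scale on a level not corrected for length, the mean log2 CPM of 12 choroid epithelium markers was 9.66 to 11.1 in single libraries, against 1.01 to 4.49 for the 25 endothelial genes. Ly6c1 shares long stretches with its paralog Ly6c2, and Acta2 with other actins, so their counts are uncertain where reads could be split between copies.

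The vascular genes varied together from library to library within groups. The measure is the percentage of a gene's sum of squares within groups that disappears when the mean of the other genes of its class is subtracted. It is a description, since all genes share the same libraries and depth. In young libraries its median was 81.5% over the 25 endothelial genes, and 21 of them exceeded 50%. Cd34, a sialomucin of endothelium and of stromal progenitors, and Ly6c1 followed their class most closely, at 96.7% and 96.3%. The mural median was 55.7%, with 7 of 10 genes above 50%. The mean of the other class removed a median of 74.2% from endothelial and 56.1% from mural genes. The mean of the epithelial markers gave -4.2% for endothelial and -6.5% for mural genes, that is, subtracting it added spread. That mean hardly varied within young groups, with SDs of 0.025 to 0.1 log2 CPM, so subtracting it could remove little whatever the relation.

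In aged libraries the medians were 62.7% for endothelial and 34.4% for mural genes. Nos3, the endothelial nitric oxide synthase, gave -1210% in young and -116% in aged libraries. Its SD within groups in young libraries was only 0.183 on the log2 CPM scale, against a median of 0.713 over endothelial genes, so the class mean varied far more than Nos3 did. Cspg4, which oligodendrocyte precursors also express, gave -281% in young and -248% in aged libraries. Vtn gave -29.8% in young and 2.0% in aged libraries, and Notch3 gave 51.6% and -164%. Plvap and Emcn, at 77.3% and 81.5% in young libraries, gave -126% and -20.1% in aged ones. Vwf had the highest SD within groups of all 35 genes in both batches, 1.13 in young and 1.09 in aged libraries. In aged libraries Kdr and Rgs5, a G-protein regulator of pericytes, were the genes for which subtracting the epithelial mean removed most, 51.4% and 45.3%, against medians of -78.5% over endothelial and -110% over mural genes.

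**Figure D1:**
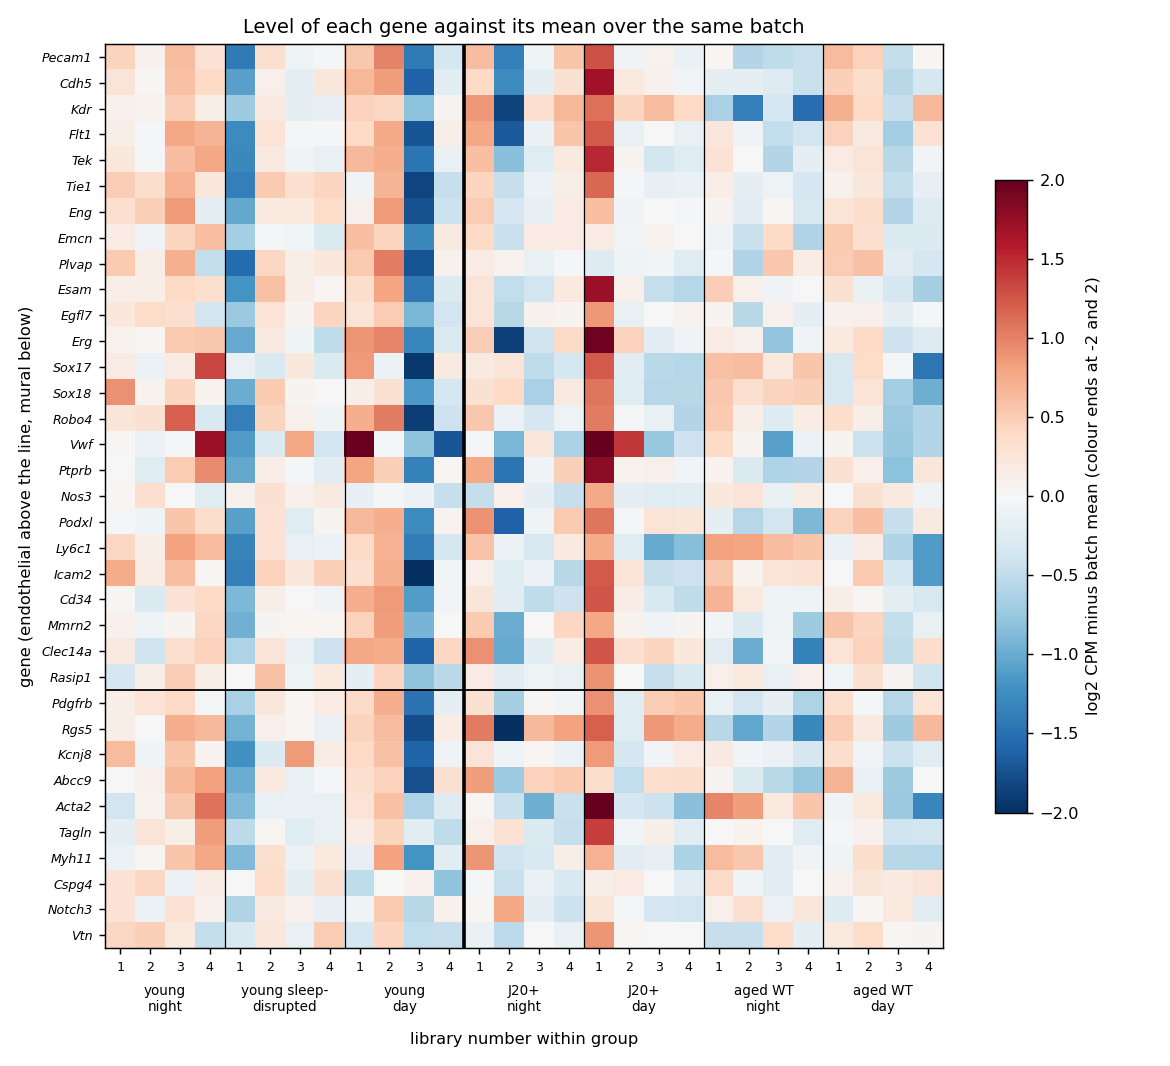
Level of each of the 35 genes (down) in each of the 28 libraries (across), as log2 CPM minus the gene's mean over the libraries of its batch, with red above and blue below that mean. Most genes of a library share a colour: young day library 3 and young sleep-disrupted library 1 are low across most genes, and J20+ day library 1 is high.

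Of the 28 libraries, 4 stood apart in these genes, and results that rest on them are given with and without them. Young day library 3 had an endothelial mean of 1.01 and a mural mean of 1.31 log2 CPM, and young sleep-disrupted library 1 had 1.40 and 1.57 log2 CPM. The other young libraries had endothelial means of 2.15 to 2.99 and mural means of 2.07 to 2.79 log2 CPM. The epithelial means of these 2 libraries, 10.8 and 10.7 log2 CPM, lay within the range of the other young libraries. Their fibroblast means, 2.69 and 3.105 log2 CPM, and macrophage means, 1.10 and 1.19 log2 CPM, were each the lowest of the group. Sleep-disrupted library 1 had the highest neuron mean of its group, 2.48 log2 CPM. J20+ day library 1 had an endothelial mean of 4.49 and a mural mean of 4.22 log2 CPM, above every other library, and its neural marker mean was 5.67 log2 CPM, the highest of the J20+ libraries. Its fibroblast, macrophage and ependyma means, 5.64, 3.79 and 6.15 log2 CPM, were also the highest of the aged libraries. The epithelial mean of the same library was the lowest of its group, 10.2 log2 CPM. J20+ night library 2 had the lowest endothelial mean of the aged libraries, 2.62 log2 CPM, with a neural mean of 4.84 and the lowest epithelial mean of the 28 libraries, 9.66 log2 CPM. The part of other cell types in these vascular levels was not tested.

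**Figure D2:**
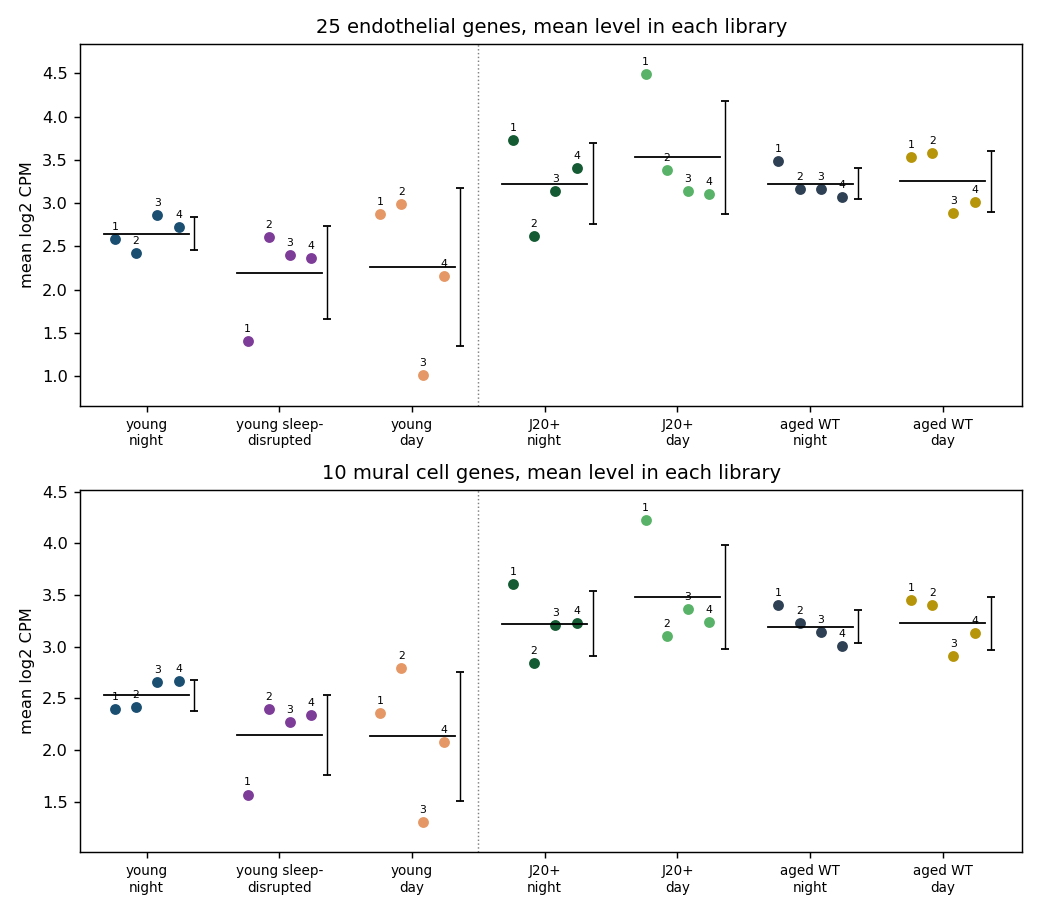
Mean log2 CPM of the 25 endothelial genes (upper) and the 10 mural genes (lower) in each library, with points numbered by library, a line at the group mean and a bar of 1 SD (n = 4). Groups of the same batch overlap in both panels, and the dotted line separates batch 1 from batch 2.

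In young mice, night against day asks whether these genes follow the time of day. None of the 35 was called, where 0.267% of all 14983 tested genes were (edgeR quasi-likelihood test, Benjamini-Hochberg adjusted p under 0.05). None had an unadjusted p under 0.05 either, against 9.39% of all genes. DESeq2 called 0 of the 35 and limma-voom 1 (Vtn), where they called 1.72% and 19.7% of all genes. The median log2 fold change was 0.19 over endothelial genes, 20 of 25 of them positive, and 0.34 over mural genes, 10 of 10 positive, against 0.02 over all genes. Without young day library 3 the medians were -0.10 and 0.10. Macrophage, fibroblast and astrocyte markers lay on the same side, 11 of 12, 8 of 8 and 9 of 10 positive. Their medians were 0.74, 0.37 and 0.33. Epithelial, oligodendrocyte and ependyma markers lay on the other side, 10 of 12, 6 of 8 and 6 of 8 negative. Their medians were -0.08, -0.045 and -0.15. The part of these cells in the vascular values was not tested. The same libraries did differ in the clock: Arntl, a clock activator, had a log2 fold change of 2.50 ± 0.18 (SE, edgeR adjusted p = 4.47e-05), higher at night.

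Sox18, a SoxF transcription factor, had the smallest p of the endothelial genes. Its log2 CPM was -0.24, -1.09, -0.73 and -1.09 in young night libraries, against -1.05, -0.86, -2.31 and -1.51 in young day libraries. The groups overlapped, with the lowest values in day libraries. Its log2 fold change was 0.67 ± 0.43 (SE, edgeR adjusted p = 0.645). Tie1, Ly6c1 and Nos3 had log2 fold changes of 0.63 ± 0.47, 0.48 ± 0.40 and 0.24 ± 0.17. Without young day library 3, Sox18 had 0.41, Tie1 0.33 and Ly6c1 0.21. Cspg4 had the smallest p of the mural genes, with 0.50 ± 0.26 (edgeR adjusted p = 0.574), and Vtn had 0.37 ± 0.26.

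Sleep disruption against undisturbed day was set up to separate sleep loss from time of day. None of the 35 was called, and neither was any of 14983 genes (0.0%), with 359 genes at an unadjusted p under 0.05 by edgeR and 0 called by DESeq2 or limma-voom. The medians were -0.31 over endothelial and -0.12 over mural genes. They were -0.63 and -0.30 without young day library 3, -0.003 and 0.14 without young day library 2, and -0.42 and -0.18 without both young day library 3 and sleep-disrupted library 1. By limma-voom the mural median was 0.16. Beside them 9 of 12 macrophage and 7 of 8 oligodendrocyte markers were negative, with medians of -0.19 and -0.28. Neuron markers were mixed, 6 of 10 positive with a median of 0.26. The part of these cells was not tested. Nos3 was the one gene of 35 whose groups did not overlap, where 0.968% of all genes lay above in the same way and 1.0% below. Its log2 CPM was 1.45, 1.65, 1.44 and 1.53 in sleep-disrupted libraries, against 1.20, 1.31, 1.24 and 0.89 in day libraries, so every sleep-disrupted library lay above every day library. The log2 fold change was 0.36 ± 0.17 (SE, unadjusted p = 0.0489, edgeR adjusted p = 0.861). Rasip1, a Ras-interacting protein needed for vessel lumens, had 0.42 ± 0.31. Erg and Clec14a, a lectin-domain protein of endothelium, had -0.65 ± 0.44 and -0.53 ± 0.40, and -0.95 and -0.85 without young day library 3. Among mural genes Cspg4 had 0.45 ± 0.26 and Acta2 -0.38 ± 0.35.

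Young night against sleep disruption compares night with sleep-disrupted mice of the day, and shares the sleep-disrupted libraries with the comparison above and the night libraries with the first. None of the 35 was called by edgeR, DESeq2 or limma-voom, where these called 0.38%, 2.08% and 7.62% of all genes. None had an unadjusted p under 0.05 by edgeR, against 9.7% of all genes. The median log2 fold change was 0.40 over endothelial genes, 23 of 25 of them positive, and 0.35 over mural genes, 10 of 10 positive. Without sleep-disrupted library 1 the medians were 0.24 and 0.16. Ly6c1 had 3.39, 3.12, 3.79 and 3.62 log2 CPM in night libraries, against 1.65, 3.28, 2.83 and 2.87 log2 CPM in sleep-disrupted libraries. Only sleep-disrupted library 2 reached into the night range. The log2 fold change was 0.74 ± 0.41 (SE, edgeR adjusted p = 0.639). Acta2, smooth muscle actin, had 0.86, 1.30, 1.76 and 2.32 log2 CPM in night libraries, against 0.34, 1.08, 1.10 and 1.08 in sleep-disrupted libraries. Night library 1 lay within the sleep-disrupted range, and the fold change was 0.75 ± 0.35 (SE, edgeR adjusted p = 0.519). Tek, Emcn, Kdr and Tagln had 0.67 ± 0.42, 0.54 ± 0.32, 0.38 ± 0.25 and 0.51 ± 0.26. Beside them 11 of 12 macrophage and 8 of 8 fibroblast markers were positive, with medians of 1.03 and 0.55 and none called. Ependyma markers went the other way, 7 of 8 negative with a median of -0.20. The part of these cells in the vascular values was not tested.

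In aged wild-type mice, night against day split the 35 genes in both directions. None was called, where 0.0124% of 16065 genes were (edgeR). Kdr and Ly6c1, 2 of 35, had an unadjusted p under 0.05, against 31.1% of all genes. DESeq2 called 1 of the 35 (Kdr) and limma-voom 11, where they called 8.65% and 52.7% of all genes. The medians were -0.11 over endothelial and -0.08 over mural genes, against 0.03 over all genes, and single genes ran from -1.29 to 1.06. Kdr, the main VEGF receptor, had 4.56, 3.84, 4.86 and 3.69 log2 CPM in aged wild-type night libraries, against 5.93, 5.62, 4.75 and 5.87 log2 CPM in aged wild-type day libraries. Only day library 3 lay within the night range. The log2 fold change was -1.29 ± 0.45 (SE, edgeR adjusted p = 0.144). Rgs5 had 2.61, 2.12, 2.58 and 1.88 log2 CPM in night libraries, against 3.66, 3.34, 2.45 and 3.81 in day libraries. Again day library 3 alone fell among the night values, and the fold change was -1.08 ± 0.51 (SE, edgeR adjusted p = 0.162). Clec14a had -0.76 ± 0.40.

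Ly6c1 had 4.16, 4.13, 3.97 and 3.90 log2 CPM in aged wild-type night libraries, against 3.22, 3.49, 2.75 and 2.21 in aged wild-type day libraries. Every night library lay above every day library, and the log2 fold change was 1.06 ± 0.36 (SE, edgeR adjusted p = 0.144). Sox18 had 1.98, 1.76, 1.88 and 1.91 log2 CPM in night libraries, against 1.12, 1.72, 0.76 and 0.47 in day libraries. Its groups did not overlap either, though night library 2 and day library 2 lay close together, and the fold change was 0.82 ± 0.40 (SE, edgeR adjusted p = 0.168). Acta2 had 3.54, 3.39, 2.75 and 3.10 log2 CPM in night libraries, against 2.48, 2.75, 1.82 and 1.26 in day libraries, with the lowest night and the highest day library level to 2 decimals. Its fold change was 1.06 ± 0.68 (SE, edgeR adjusted p = 0.258). Counting Acta2, night lay wholly above day in 3 of 35 genes and wholly below in 0 of 35, where it did so in 10.8% and 15.2% of all genes.

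Other properties of the libraries differed between the same groups, and their part in the vascular values was not tested. All 10 neuron markers were positive at night, with a median log2 fold change of 3.24, and all 12 epithelial markers were negative, with a median of -0.82, none called in either list. The neural marker mean was 4.06 to 6.84 log2 CPM in aged wild-type night libraries, against 1.02 to 4.97 in day libraries. The highest of the day libraries was library 3. In J20+ day libraries the neural mean reached 5.67 log2 CPM, with Kdr at 5.62 to 6.32 log2 CPM. The GC trend, the slope of a library's log2(CPM + 0.5), as a deviation from each gene's mean, on transcript GC content, was 0.134 to 0.343 per 10 percentage points in night libraries, against -0.245 to 0.0437 in day libraries. With the neural mean as a covariate, Kdr had -0.93 ± 0.52, Rgs5 -0.61 ± 0.60, Ly6c1 0.54 ± 0.38 and Acta2 -0.22 ± 0.65. With a correction for GC content, Kdr had -1.41 ± 0.45 and Ly6c1 0.92 ± 0.33, while Sox18 had 0.17 ± 0.34. A fit on these 8 libraries alone called Kdr, Rgs5, Ly6c1 and Acta2, or 11.4% of the 35, where it called 26.2% of 15385 genes.

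**Figure D3:**
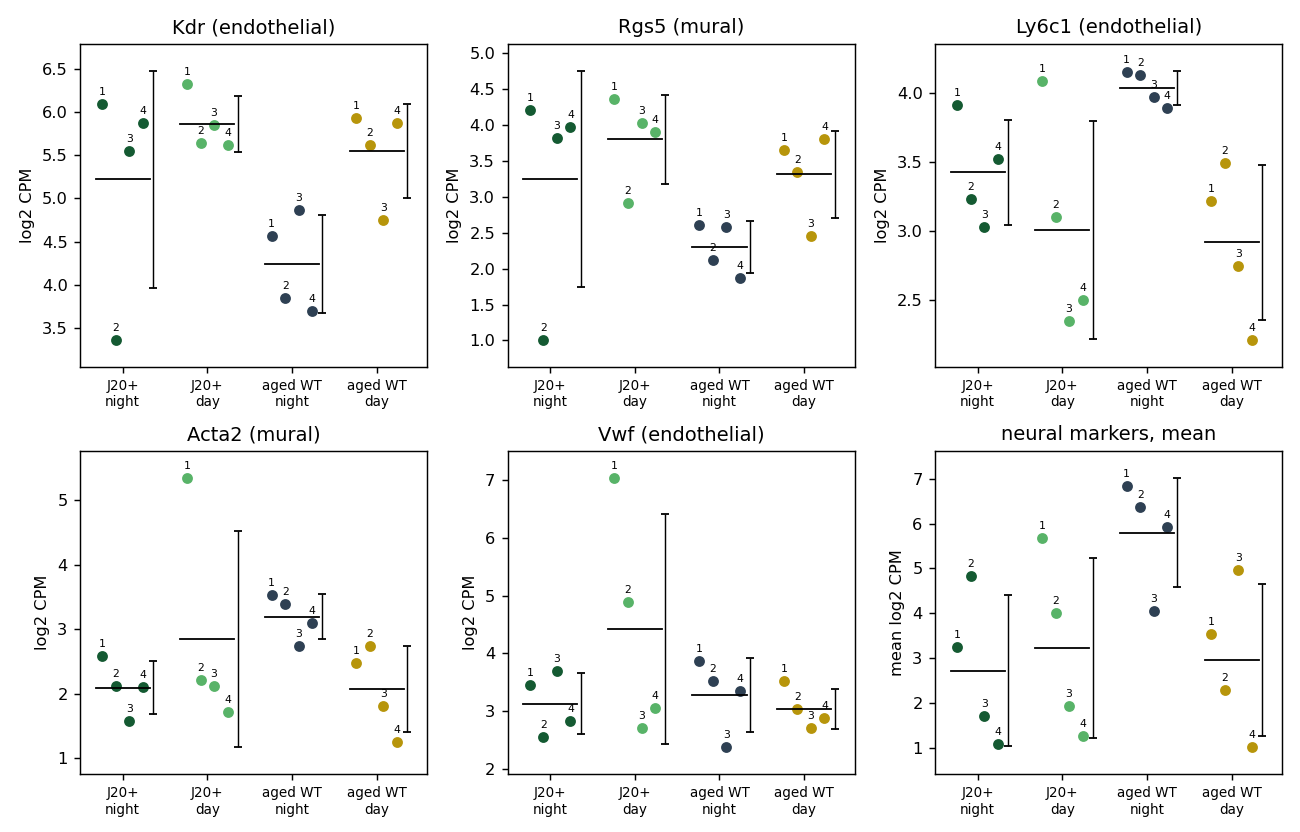
Log2 CPM of Kdr, Rgs5, Ly6c1, Acta2 and Vwf and the mean log2 CPM of neural markers in each aged library, with points numbered by library, a line at the group mean and a bar of 1 SD (n = 4). Ly6c1 is higher in every aged wild-type night library than in any aged wild-type day library. J20+ day library 1 stands alone in Acta2. In Vwf both J20+ day libraries 1 and 2 lie above every library of the other groups.

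In J20+ mice, night against day called none of the 35, where 0.0436% of 16065 genes were called (edgeR). Vwf, Acta2 and Pdgfrb, 3 of 35, had an unadjusted p under 0.05, against 7.41% of all genes. DESeq2 and limma-voom called 0 of the 35, where they called 0.492% and 2.03% of all genes. The medians were -0.29 over endothelial genes and -0.25 over mural genes, and the endothelial one was 0.16 by limma-voom. Astrocyte, neuron, fibroblast and macrophage markers lay on the same side, 9 of 10, 9 of 10, 7 of 9 and 11 of 12 negative. Their medians were -1.50, -0.81, -0.56 and -0.34. Erythroid markers and the tested lymphocyte and neutrophil markers lay on the other side, 4 of 4 positive in each list. Their medians were 0.75 and 0.585. The part of these cells in the vascular values was not tested. Vwf had 3.45, 2.55, 3.69 and 2.83 log2 CPM in J20+ night libraries, against 7.04, 4.90, 2.71 and 3.05 log2 CPM in J20+ day libraries. The groups overlapped, and day libraries 1 and 2 alone lay above the night libraries. The log2 fold change was -2.27 ± 0.74 (SE, edgeR adjusted p = 0.652), and -0.71 without J20+ day library 1. Acta2 had 2.59, 2.12, 1.58 and 2.11 log2 CPM in J20+ night libraries, against 5.35, 2.22, 2.12 and 1.72 in J20+ day libraries. Its fold change was -1.61 ± 0.68 (SE, edgeR adjusted p = 0.652), and 0.10 without J20+ day library 1. Erg, Cdh5 (the adherens junction protein VE-cadherin), Cd34 and Pdgfrb had -0.94 ± 0.54, -0.73 ± 0.41, -0.53 ± 0.34 and -0.55 ± 0.26. Without J20+ day library 1 these were -0.19, -0.14, -0.005 and -0.38, and the medians were 0.10 and 0.04.

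The difference between the J20+ and the aged wild-type night against day effects was tested directly, as an interaction. None of the 35 was called, and neither was any of 16065 genes (0.0%), with 12.4% of genes and 2 of the 35 at an unadjusted p under 0.05 by edgeR. DESeq2 called 0 of the 35 and limma-voom 4, where they called 0.056% and 35.1% of all genes. The medians were -0.29 over endothelial and -0.17 over mural genes, and 0.23 and 0.14 without J20+ day library 1. With the neural mean as a covariate they were 0.135 and 0.05, against -0.03 over all genes. With the GC correction they were 0.131 and 0.231, against 0.289 over all genes. All 10 neuron markers were negative here, with a median of -4.00, and all 12 epithelial markers positive, with a median of 0.78. Their part was not tested. Acta2 had -2.66 ± 0.96 (SE, edgeR adjusted p = 0.359) and Vwf -2.58 ± 1.02 (adjusted p = 0.363). Without J20+ day library 1 these were -0.89 and -0.95. Sox17, Icam2 (an adhesion molecule of resting endothelium), Cd34 and Tagln had -1.03 ± 0.64, -0.97 ± 0.58, -0.82 ± 0.48 and -0.67 ± 0.44, and -0.30, -0.40, -0.23 and -0.10 without J20+ day library 1. Without J20+ night library 2, Kdr was called at 1.27 ± 0.42 (edgeR adjusted p = 0.0492), 1 of 35 genes or 2.9%, where 20.9% of all genes were called.

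J20+ against aged wild-type mice at day called none of the 35, and none of 16065 genes (0.0%), with 1.87% of genes and 2 of the 35 at an unadjusted p under 0.05 by edgeR. DESeq2 and limma-voom called 0 of the 35, where they called 0.0% and 16.6% of all genes. The medians were 0.35 over endothelial genes, 22 of 25 of them positive, and 0.24 over mural genes, 8 of 10 positive. Without J20+ day library 1 they were -0.10 and -0.07. Vwf had the largest fold change, 2.40 ± 0.75 (SE, edgeR adjusted p = 0.989), with J20+ day values as above, against 3.52, 3.03, 2.71 and 2.88 log2 CPM in aged wild-type day libraries. J20+ day libraries 3 and 4 lay within the aged wild-type range, and the fold change was 0.84 without J20+ day library 1. Acta2 had 1.56 ± 0.68 with that library and -0.15 without it. Erg, Esam (an endothelial tight junction adhesion molecule), Cdh5 and Tagln had 0.83 ± 0.55, 0.70 ± 0.43, 0.62 ± 0.41 and 0.64 ± 0.32, and 0.071, -0.12, 0.028 and 0.13 without J20+ day library 1. In the same comparison all 9 tested fibroblast markers, all 10 neuron markers, 9 of 10 astrocyte markers and 11 of 12 macrophage markers were positive. Their medians were 0.61, 1.03, 1.26 and 0.28, and none was called. Oligodendrocyte markers went the other way, 9 of 10 negative with a median of -0.91, and epithelial markers split, 6 of 12 positive. The part of these cells in the vascular values was not tested.

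**Figure D4:**
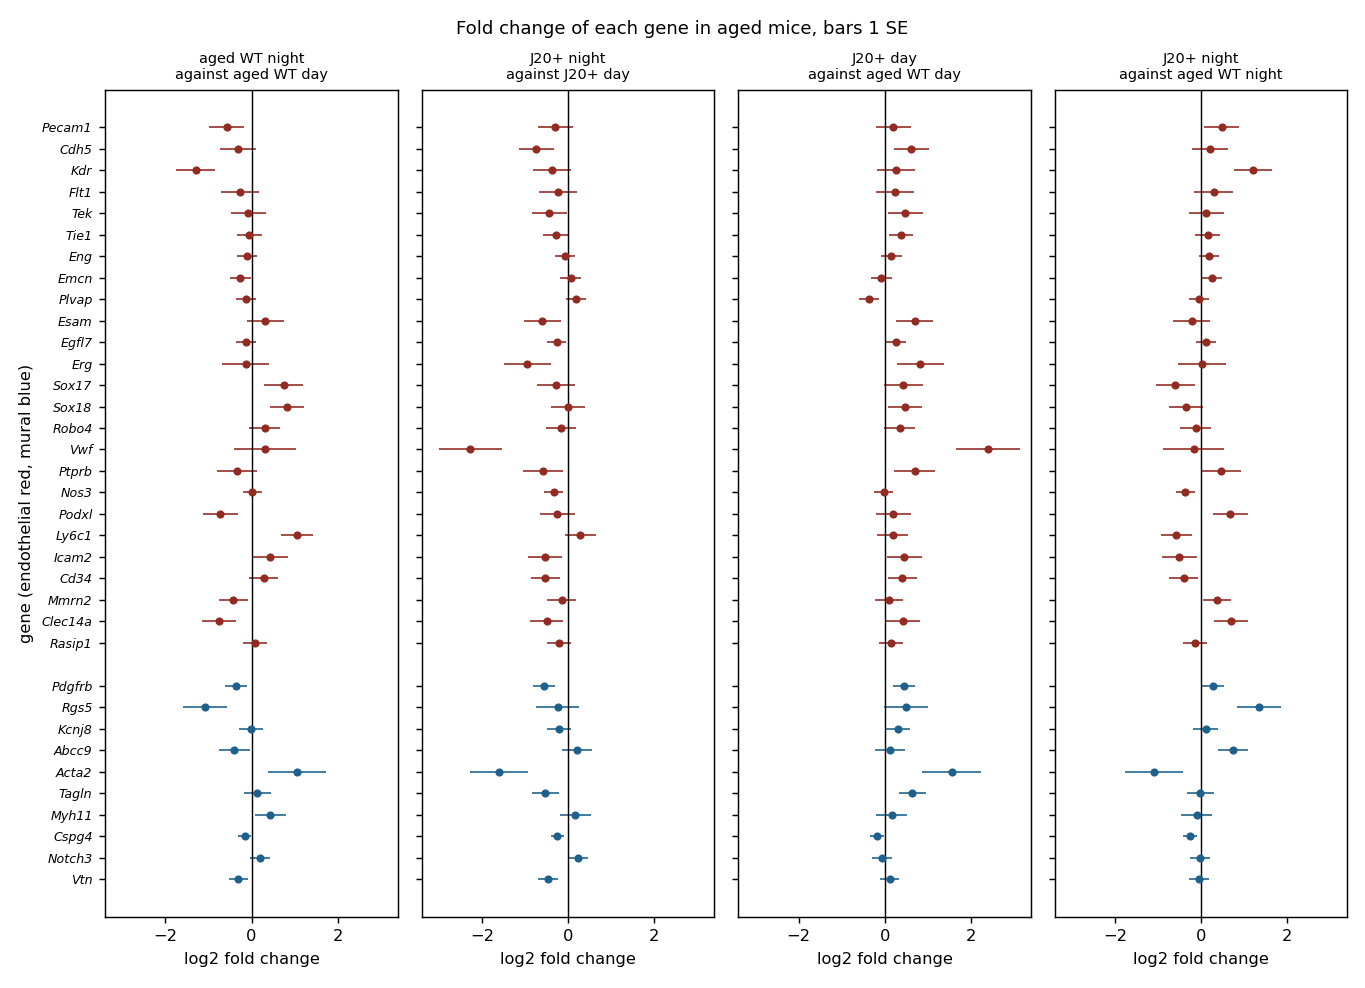
Log2 fold change with bars of 1 SE for each of the 35 genes (endothelial red, mural blue) in 4 comparisons of aged mice, from fits on 16 libraries. Kdr and Rgs5 lie to the left in aged wild-type night against day and to the right in J20+ against aged wild-type night, which share the aged wild-type night libraries.

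J20+ against aged wild-type mice at night called none of the 35, where 0.00622% of 16065 genes were called (edgeR). Kdr and Rgs5, 2 of 35, had an unadjusted p under 0.05, against 31.9% of all genes. DESeq2 called Kdr alone of the 35 and limma-voom 16, where they called 18.7% and 72.4% of all genes. The medians were 0.12 over endothelial and -0.02 over mural genes, and 0.29 and 0.06 without J20+ night library 2. It shares the aged wild-type night libraries with the comparison of night and day in aged wild-type mice. Kdr had 6.09, 3.37, 5.55 and 5.87 log2 CPM in J20+ night libraries, against the 3.69 to 4.86 log2 CPM of aged wild-type night libraries. J20+ night library 2 lay below all 4 and the other J20+ libraries above all 4. The log2 fold change was 1.20 ± 0.45 (SE, edgeR adjusted p = 0.103). Rgs5 had 4.21, 1.01, 3.81 and 3.97 log2 CPM in J20+ night libraries, against 1.88 to 2.61 log2 CPM in aged wild-type night libraries. The same library was the exception, and the fold change was 1.34 ± 0.51 (SE, edgeR adjusted p = 0.108). Abcc9, the regulatory subunit of the pericyte potassium channel, Clec14a and Podxl had 0.74 ± 0.35, 0.69 ± 0.40 and 0.68 ± 0.41. Nos3 had -0.37 ± 0.22.

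Acta2 was the one gene of 35 whose groups did not overlap at night, where 2.86% of all genes lay below in the same way and 4.28% above. Its 1.58 to 2.59 log2 CPM in J20+ night libraries lay below the 2.75 to 3.54 log2 CPM of aged wild-type night libraries, with a fold change of -1.10 ± 0.67 (SE, edgeR adjusted p = 0.262). Without J20+ night library 2, edgeR called 5 of the 35, or 14.3%, where it called 57.7% of 16310 genes. They were Rgs5 at 1.70 ± 0.34 (adjusted p = 0.00194), Kdr at 1.54 ± 0.31 (adjusted p = 0.00213), Podxl at 0.99 ± 0.30, Abcc9 at 0.98 ± 0.31 and Clec14a at 0.94 ± 0.37. Without both that library and J20+ day library 1 it called 10 of the 35, where it called 62.9% of all genes. The share of calls among the 35 was below that of all genes in both fits. Neuron markers were lower in J20+ night libraries by a median of 2.86 on the log2 scale, 10 of 10 negative. Epithelial markers had a median of 0.75, 11 of 12 positive. The GC trend was 0.428 in J20+ night library 2 and -0.216 to -0.176 in the other J20+ night libraries. It was 0.134 to 0.343 in aged wild-type night libraries. The part of these markers and of the GC trend in the vascular values was not tested.

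Night against day averaged over young, aged wild-type and J20+ mice, fitted on 28 libraries, called none of the 35, where 3.15% of 16590 genes were called (edgeR). Ly6c1, Kdr and Clec14a, 3 of 35, had an unadjusted p under 0.05, against 28.7% of all genes. DESeq2 called 0 of the 35 and limma-voom 3, where they called 9.92% and 39.2% of all genes. The medians were -0.09 over endothelial and -0.03 over mural genes, and 0.03 and 0.09 without J20+ day library 1. Ly6c1 had 0.58 ± 0.23 (SE, edgeR adjusted p = 0.118) and Kdr -0.54 ± 0.22 (adjusted p = 0.121). Without J20+ day library 1 Ly6c1 was called at 0.76 ± 0.21 (adjusted p = 0.0359), 1 of 35 genes or 2.9%, where 7.79% of all genes were called. Without J20+ night library 2 as well, 1 of the 35 was called, where 9.75% of all genes were. For Ly6c1 the 3 single contrasts were 0.48 ± 0.40 in young, 1.06 ± 0.36 in aged wild-type and 0.28 ± 0.36 in J20+ mice. For Kdr they were 0.09 ± 0.25, -1.29 ± 0.45 and -0.36 ± 0.44. Clec14a, Sox18, Myh11 (smooth muscle myosin) and Pdgfrb had -0.49 ± 0.24, 0.48 ± 0.25, 0.30 ± 0.22 and -0.28 ± 0.18.

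Other vascular lists were read in the same fit. Of 16 genes of barrier-forming brain endothelium, 12 of them negative, 1 was called, where 3.15% of all genes were. Slco1a4, an organic anion and thyroid hormone transporter, was lower at night by a log2 fold change of -0.39 ± 0.09 (SE, edgeR adjusted p = 0.0176). Its cell of origin cannot be told from bulk tissue. In the same fit 11 of 12 epithelial markers were negative, with a median of -0.33 and none called. Their part was not tested. Of 37 endothelial ligands, receptors and Notch genes, 25 of them negative, 1 was called. Bmp4, a ligand of endothelial and stromal BMP receptors, was higher at night by 0.60 ± 0.15 (edgeR adjusted p = 0.0264). None was called among 24 further endothelial genes, 16 arterial, venous and capillary genes, 23 further mural genes and 10 basement membrane genes. The basement membrane list had 8 of 10 negative, with a median of -0.29 and a lowest edgeR adjusted p of 0.0841. Its 8 of 10 genes at an unadjusted p under 0.05 by edgeR stand beside 28.7% of all genes. The counts were 7 of 16 barrier, 7 of 24 further endothelial and 11 of 37 ligand and receptor genes. They were 1 of 16 arterial, venous and capillary genes and 2 of 23 further mural genes. Of 9 tested fibroblast markers, 5 were negative, with a median of -0.10 over the list. The 1 called was Mgp, a matrix protein of fibroblasts and vessels, at 0.53 ± 0.13 (edgeR adjusted p = 0.0312).

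Aged wild-type against young undisturbed libraries differ in age and in batch, which cannot be told apart, so no test is given. These differences are of mean log2(CPM + 0.5), with CPM of total counts and no TMM scaling, so they differ from those of the levels above. They ran from -1.65 for Rgs5 to 3.21 for Cspg4. The median was 0.58 over endothelial and 0.90 over mural genes, against 0.31 over all genes. For 11 of 35 genes every aged wild-type library lay above every young undisturbed library, and for 0 of 35 below, against 36.2% and 22.6% of 13754 genes. The difference followed the GC content of the transcripts, with a Pearson correlation of 0.875 across the 35 genes and 0.795 across 13278 genes. Genes are not independent replicates, and all points share the same libraries, so this is a description. Rgs5, at 41.1% GC, Emcn, at 40.7%, and Abcc9, at 46.2%, had differences of -1.65, -1.31 and -1.47, while Nos3 and Cspg4, at 58.2% and 59.2%, had 2.55 and 3.21.

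**Figure D5:**
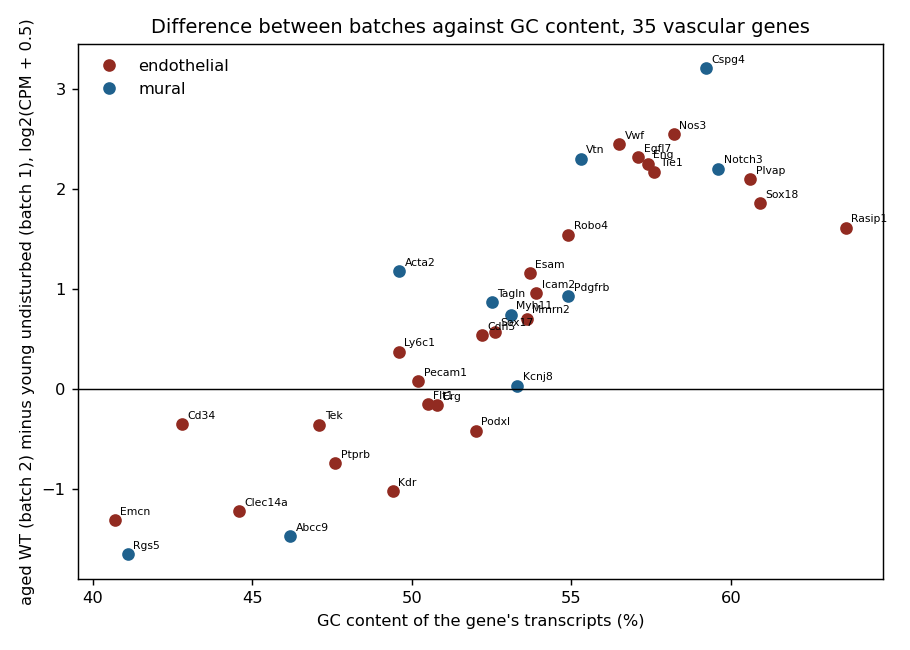
Mean log2(CPM + 0.5) of aged wild-type libraries (batch 2) minus that of young undisturbed libraries (batch 1) for each of the 35 genes, against the GC content of the gene's transcripts in percent. Points climb with GC content, from Rgs5 and Emcn at the lower left to Cspg4 near the upper right.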

How the data were processed

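The authors deposited 1 table of 12 young and 1 of 16 aged libraries, each holding unnormalized read counts by Entrez gene. Per the labels' protocols, poly(A) RNA was made into TruSeq Stranded mRNA libraries and sequenced on a NovaSeq. Per the submitters' processing notes, the tools were HISAT2 2.2.1 with build mm10, featureCounts 2.0.1, cutadapt, FastQC 0.11.8, DESeq2 and Picard 2.18.2. Which annotation was counted, on which strand, and what was done with multiply aligned reads was not given in the sources used here. Groups follow the labels, and replicate numbers only name libraries in the order of the sample records. Nothing in the labels says in words that libraries of a group came from separate mice, so p-values measure the spread between these libraries, which may be technical.

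Identifiers were matched to symbols and positions in the RefSeq table of GRCm38.p6, where 25275 of 27179 (93.0%) matched. Genes were kept with filterByExpr and scaled by trimmed mean of M values (TMM), and edgeR 4.0.16 under R 4.3.3 fitted a robust quasi-likelihood model of group means. Young comparisons used the 12 young, aged ones the 16 aged and the averaged one all 28 libraries. The Benjamini-Hochberg adjustment ran over all tested genes, and a gene was called at an adjusted p under 0.05. The size of a log2 fold change over root F gave its standard error (SE). Levels are log2 CPM with a prior count of 2, except that GC trends and the aged against young differences use log2(CPM + 0.5) of total counts. Marker means average log2 CPM over a list, and the neural one joins neuron, oligodendrocyte and astrocyte markers. Exon lengths and transcript GC content come from GENCODE gene models of the same build.

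Each comparison names every called gene of the 35 or, where fewer than 6 were called, the 4 endothelial and 2 mural genes with the smallest p. Genes named for groups that did not overlap, for their level or for how they varied were chosen after their values were seen. Of other lists, up to 5 called genes are named. The genes, lists and tests were chosen with earlier results of these data known. Alternatives were DESeq2 1.42.0, limma-voom with quality weights (limma 3.58.1), scaling by upper quartile or by relative log expression (RLE), a prior count of 0.5 for the levels, no filter, at least 10 CPM in 4 libraries, the neural mean as a covariate, the compared groups alone, and leaving out libraries. A loess correction for GC content and leaving out young day library 3 with young sleep-disrupted library 1 were chosen after seeing the data. The steps were tested on simulated data.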

Additional observations from a re-analysis of the deposited data

Results flagged for a closer look

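Within a group of 4 libraries, a value is listed here when its gap to the nearest other library takes up more of the group's range than Dixon's 95% critical value. Of 266 such groups, 24 were listed, and chance alone lists about 1 in 20, or 13.3. Their libraries were not spread evenly: 9 of the 24 are high values of J20+ day library 1, and 7 are low values of young sleep-disrupted library 1.

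J20+ day library 1 was the highest of its group in Pecam1, an adhesion molecule of endothelial junctions, at 5.46 log2 CPM, with the other 3 libraries at 4.06 to 4.26. It was highest in Cdh5 at 4.98, in Flt1 at 5.69, in Tie1 at 4.75 and in Eng, a co-receptor for TGF-beta and BMP ligands, at 5.32 log2 CPM. It was also highest in Ptprb, the endothelial phosphatase that acts on Tek, at 6.47, in Nos3 at 4.61, in Acta2 at 5.35 and in Vtn at 7.65 log2 CPM. Both classes of vascular gene are among these. Abcc9 went the other way in that group: J20+ day library 2 was lowest at 2.10 log2 CPM, with the others at 2.92 to 2.95. In J20+ night mice, library 2 was lowest in Rgs5 at 1.01 log2 CPM, with the others at 3.81 to 4.21.

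Young sleep-disrupted library 1 was the lowest of its group in Tie1 at -0.22, Eng at 1.26, Plvap at 0.50, Icam2 at -1.74 and Mmrn2, an endothelial matrix protein, at 0.84 log2 CPM. It was also lowest in Acta2 at 0.34 log2 CPM and in the mean of the 10 mural genes at 1.57, with the others at 2.28 to 2.39. Young day library 3 was lowest in Clec14a at 2.78 and in Abcc9 at 2.11 log2 CPM, and young day library 2 was highest in Vtn at 4.95. In young night mice, library 3 was highest in Kdr at 6.36 and library 4 in Vwf at 1.92 log2 CPM. In aged wild-type night mice, library 3 was lowest in Sox17 at 1.02 log2 CPM.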

How the results depend on the processing

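RLE and upper-quartile scaling and no filter called 0 of the 35 genes in every comparison. The filter at 10 CPM called none of the genes it kept. It drops genes of low level, such as Sox18 and Vwf in young libraries, so those could not be called there. DESeq2 called 1 in aged wild-type night against day and 1 in J20+ against aged wild-type night. Limma-voom called 1 in young night against day, 11 in aged wild-type night against day, 16 in J20+ against aged wild-type night, 4 in the interaction and 3 in the averaged comparison. The fit on the compared groups alone called 4 in aged wild-type night against day. With both J20+ libraries that stood apart left out (day 1, night 2), edgeR called 10 in J20+ against aged wild-type night, where it called 62.9% of all genes, and 1 in the averaged comparison, where it called 9.75%. Leaving out single libraries gave 0 to 5 calls in J20+ against aged wild-type night, the 5 without J20+ night library 2, and 0 to 1 in the interaction and in the averaged comparison. With the GC correction the aged wild-type night against day medians were -0.45 over endothelial and -0.41 over mural genes, against -0.16 over all genes. In J20+ against aged wild-type night the mural median was 0.32 with the GC correction, against 0.18 over all genes, and 0.35 with the neural covariate. In J20+ against aged wild-type day the endothelial median was -0.25 by limma-voom. In the interaction the endothelial median was 0.36 by limma-voom, 0.28 without both J20+ libraries and -0.49 to 0.23 without single libraries, and the mural median was 0.23 with the GC correction, against 0.29 over all genes. Single genes, none called, changed sign as follows. In J20+ night against day, Cdh5 had 0.12, Erg 0.13, Cd34 0.007 and Acta2 0.11 without both J20+ libraries, Erg 0.053 and Vwf 0.22 by limma-voom, and Acta2 -2.03 to 0.10 without single libraries. In J20+ against aged wild-type day, limma-voom gave Cdh5 -0.12, Esam -0.40, Erg -0.17, Vwf -0.059 and Acta2 -0.24. Without both J20+ libraries Esam had -0.12 and Acta2 -0.14 there, and without single libraries Esam had -0.12 to 0.97 and Acta2 -0.15 to 1.95. In J20+ against aged wild-type night, Nos3 had 0.054 with the GC correction and 0.033 with the neural covariate. With the neural covariate Acta2 had -0.22 in aged wild-type night against day, and in the interaction Sox17 had 0.054, Vwf 0.003 and Cd34 0.081, with Vwf at 0.007 by limma-voom. The causes of these shifts were not tested. No paired analysis was possible because the labels give no replicate numbers that groups share. With 4 libraries a group, genes of low count such as Sox18 and Vwf carry wide errors, and a p above the threshold does not show that levels were equal.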
